A study of Mus musculus with 2 samples.

Results

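A set of IgA cells that carried the same heavy chain, IGHV4-1 joined to IGHJ3, was examined in the control library of a single-cell B cell receptor study of mouse Peyer's patches. The cells were chosen from that library as barcodes with exactly 1 productive heavy chain, defined as an in-frame IGH transcript, with V gene IGHV4-1, J gene IGHJ3 and constant gene IGHA. This rule found 417 cells among 2947 cells of the control library and 6241 cells of the whole series. Of the 417, 416 carried an identical CDR3, the stretch of the chain that spans the V, D and J joints, and are called the clone. The rule fixed the genes of the heavy chain, so these are no finding. The markers fixed for the clone were IGHV4-1, IGHJ3, IGHA and the kappa gene IGKV9-123, and the last, which the rule did not use, was found as described below.

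The study asked how B cell receptors compare between mice with and without MHC class II on the gut epithelium. Both libraries came from adult female mice with floxed H2-Ab1, which encodes the beta chain of MHC class II. The control library was H2-Ab1 fl/fl; Villin:Cre- and the other was H2-Ab1 fl/fl; Villin:Cre+, in which the Villin promoter drives Cre in intestinal epithelial cells. Because the design text of the series writes Cre- for both groups, the genotype tag of each sample was used. In both, CD45+ cells of 4 mice were enriched on magnetic beads, pooled and loaded into droplets, and their receptor transcripts were amplified and assembled into contigs. Transcripts were counted as unique molecular identifiers (UMIs), tags that mark the original molecules. The tables do not assign cells to mice, so whether the clone came from 1 mouse or several cannot be told. The control library held 355985 UMIs in 3245 barcodes and the Cre+ library 355258 UMIs in 3748 barcodes. There was 1 pooled library per genotype and so no replicate, and groups were compared without a test. The range after a share is its exact 95% interval by Clopper and Pearson. For a count of 0 the upper limit is given as the share that 3 counts would make. Both cover the error of counting alone, and cells of a clone are not independent of each other. Cell types and states could not be read, since gene expression of these cells was not used here.

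A B cell makes its heavy chain from a V, a D and a J segment and its light chain from a V and a J segment of the kappa or lambda locus. The joints differ between B cells, so cells with the same heavy-chain joint usually descend from 1 cell. In Peyer's patches, activated B cells switch from IgM to IgA and may mutate their receptors in germinal centres, and their plasma cell progeny secrete IgA into the gut. B cells also transcribe unrearranged receptor segments, which give contigs with a constant gene but no V gene.

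The CDR3 nucleotides of the clone are shown because every later count of the clone's chains rests on them. In the heavy chains, capitals mark the bases that lie between the start shared with most unswitched (IgM or IgD) cells of the same V gene and the end shared with most unswitched cells of the same J gene, over both libraries. In the kappa chain, capitals mark the end shared with most unswitched IGKJ1 cells. The third sequence belongs to the member outside the clone, and the last to the largest IgA clone of the Cre+ library, with which the clone is compared at the end.
clone heavy chain: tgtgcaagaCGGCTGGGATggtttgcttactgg
clone kappa chain: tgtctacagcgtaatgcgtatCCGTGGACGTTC
member outside the clone: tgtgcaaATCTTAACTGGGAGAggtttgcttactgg
largest Cre+ IgA clone heavy chain: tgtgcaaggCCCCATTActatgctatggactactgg

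The heavy CDR3 of the clone had 33 nucleotides. Its first 9 bases were shared by 73.8% of 42 unswitched IGHV4-1 cells and its last 14 by 60.0% of 1106 unswitched IGHJ3 cells. The 10 bases between them hold CTGGGA, at positions 13 to 18 of the CDR3 counted from its first base. These 6 bases were found in 58.3% of the CDR3s of 568 unswitched cells with the same D gene call, IGHD4-1, and in 0.412% of 4608 unswitched cells without it. The D gene call was itself made from the sequence. The kappa CDR3 also had 33 nucleotides. Its first 25 bases were shared by 75% of the 8 cells outside the clone whose main light chain used IGKV9-123. These 8 include cells with the identical kappa CDR3, so they are not a separate reference. The last 12 bases of the kappa CDR3 were shared by 51.8% of 1455 unswitched IGKJ1 cells, so that no base lay outside both stretches.

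On GRCm38 the heavy-chain segments lie on chromosome 12, with Ighv4-1 at 113948284 to 113948577, Ighd4-1 at 113430528 to 113430538, Ighj3 at 113429085 to 113429132 and the constant region Igha at 113256204 to 113260236. The kappa segments lie on chromosome 6, with Igkv9-123 at 67954230 to 67954690 and Igkj1 at 70722562 to 70722599.

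No variant of the heavy CDR3 was found near the clone. Of the 175 other contigs of the control library with a CDR3 of 33 nucleotides, whatever their genes, the closest differed at 6 positions. Among 413 contigs with IGKV9-123 and a CDR3 in that library, compared where lengths were equal, 408 had the clone's kappa CDR3, 0 differed at 1 position, 2 differed at 2 positions and 1 at 3. Only the CDR3 was compared, because the tables hold no sequence of the V region. For comparison, the other IgA lineages of the control library, built at 85% CDR3 identity, had at most 4 IgA cells. A lineage of 4 cells with IGHV1-19 held 4 different CDR3s and so did a lineage of 4 with IGHV14-3, while 3 cells with IGHV1-12 shared a CDR3.

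Nearly all members carried the same light chain. The light chain with the most UMIs was IGKV9-123 with the clone's CDR3 in 385 of 417 members, or 92.3% (89.3 to 94.7). In 3 more members the same CDR3 was assigned to IGKV9-124, a neighbouring V gene at 67942076 to 67942540. That call may be uncertain, since these contigs had a median length of 468 nucleotides against 497 for IGKV9-123. No productive light chain was found in 24 members (5.76%, 3.72 to 8.44). In 8 of these 24 a nonproductive contig still carried the clone's kappa V gene or CDR3. The main light chain had another CDR3 in 5 members (1.20%, 0.390 to 2.78).

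Light chains other than the clone's were rare in the members and mostly at few UMIs. There were 12 such contigs in 12 members, and 10 of them had 2 UMIs or fewer. They were IGLV1 in 4 members, at 1 to 2 UMIs, IGKV8-27 in 3 at 1 to 2 UMIs, IGKV10-94 in 2 at 2 UMIs, and IGKV6-15 in 1 at 1 UMI. The exceptions were an IGKV13-85 chain with 14 UMIs and an IGKV4-57-1 chain with 8. All 9 members with 2 productive light chains had the clone's kappa CDR3 as 1 of them. A second light chain was thus found in 2.16% of members (0.992 to 4.06), in 2.14% of the 140 other IgA cells of the library (0.444 to 6.13) and in 8.87% of its 2265 unswitched cells (7.73 to 10.1). In the Cre+ library it was found in 10.4% of 154 IgA cells outside its largest IgA clone (6.06 to 16.3). These shares were not matched for depth. The main light chain had medians of 5, 38.5 and 32 UMIs in the members, other IgA cells and unswitched cells of the control library that had one.

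The member outside the clone differed from the rest in its other contigs as well. Its heavy chain, with a CDR3 of 36 nucleotides, had 5 UMIs and a contig of 571 nucleotides, the shortest among the members. It lacked a productive light chain, but held a nonproductive IGLV1 contig with 33 UMIs, a lambda contig without V gene with 9 UMIs and an IgM contig without V gene with 8 UMIs. These and a contig of mixed annotation with 2 UMIs made up 52 of the 79 nonproductive UMIs of all members. It is counted among the 417 unless stated otherwise.

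Each member held a moderate number of heavy-chain UMIs and few light-chain UMIs. Heavy-chain UMIs ran from 2 through a median of 19 to 57 in the members, and from 1 through a median of 15 to 5322 in the other IgA cells. The main light chain ran from 1 through a median of 5 to 17 UMIs in the 393 members that had one, and from 2 through a median of 38.5 to 12518 in 134 other IgA cells. Here and below, a cell with a light chain is one with a productive light chain. The groups overlapped for both chains. The median of the members was above that of the other IgA cells for the heavy chain and below it for the light chain. Heavy chains at 100 or more UMIs were found in 10 of 140 other IgA cells (7.14%, 3.48 to 12.7). They were found in 0 of 417 members, so that up to 0.719% is allowed. The 417 members, of 2947 cells, held 10.5% of the heavy-chain UMIs of those cells.

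**Figure D1:**
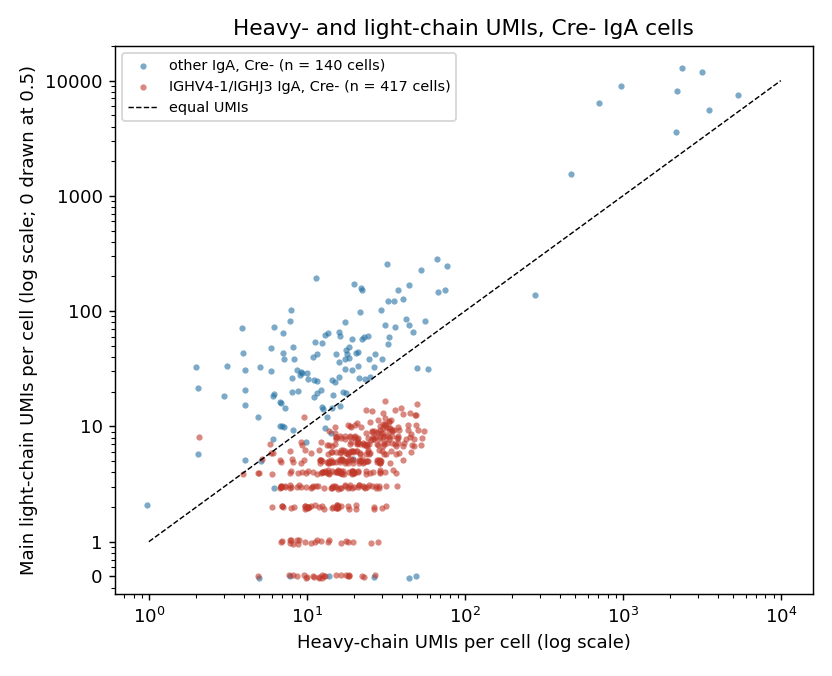
Heavy-chain UMIs (x axis, log scale) against UMIs of the main light chain (y axis, log scale, cells without one drawn at 0.5) for 417 IGHV4-1/IGHJ3 IgA cells and 140 other IgA cells of the control library, 1 point per cell with a small random shift. The members form a cloud below the line of equal UMIs, between 2 and 57 heavy-chain UMIs, and most other IgA cells lie above the line.

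Summed over the members, heavy chains gave 8527 UMIs (exact 95% Poisson interval 8347 to 8710) and productive light chains 2163 (2073 to 2256), or 79.2% and 20.1% of their receptor UMIs. In the other IgA cells the order was turned, with 23.1% heavy and 73.0% light. In the unswitched cells 19.2% were heavy and 70.9% light. Without the 10 cells at 100 or more heavy-chain UMIs, the other IgA cells had 20.8% heavy and 56.8% light. The median light-to-heavy UMI ratio of a member was 0.263 (interquartile range 0.179 to 0.357). Of the 134 other IgA cells with a light chain, 0 lay below that median, so that up to 2.24% is allowed. The lowest of them equalled it, and 1 of 134 lay below 0.357 (0.746%, 0.0189 to 4.09). Of 2239 unswitched cells, 7 lay below the members' median (0.313%, 0.126 to 0.643). Light-chain UMIs exceeded heavy-chain UMIs in 3 of 417 members (0.719%, 0.149 to 2.09), in 122 of 140 other IgA cells (87.1%, 80.4 to 92.2) and in 92.8% of unswitched cells. The members where they did held 7 light against 6 heavy UMIs, 12 against 10, and, with the IGKV4-57-1 chain, 8 against 2.

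**Figure D2:**
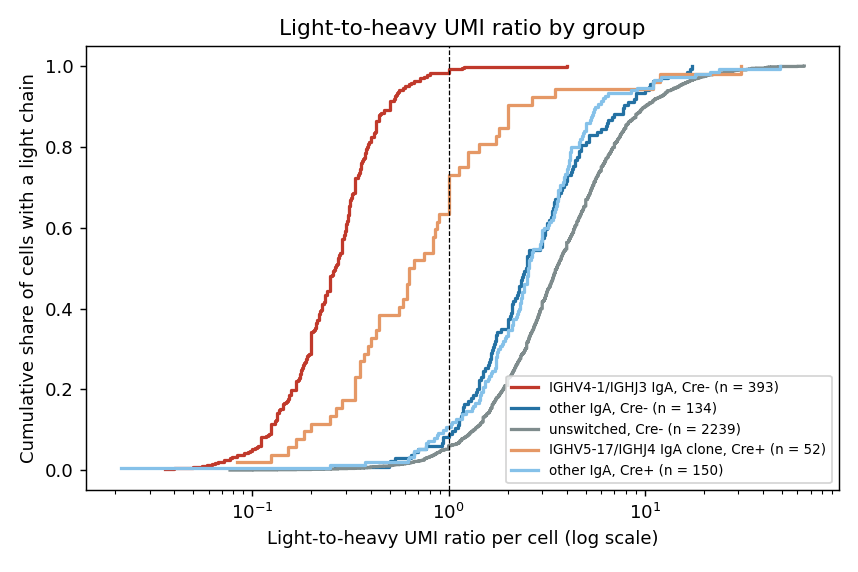
Cumulative share of cells (y axis) by the ratio of main light-chain to heavy-chain UMIs (x axis, log scale; dashed line at equal UMIs), for cells with a light chain in 5 groups. The curve of the IGHV4-1/IGHJ3 IgA cells lies farthest left, with a median of 0.263, that of the IGHV5-17/IGHJ4 IgA clone of the Cre+ library lies next at 0.646, and the other groups have medians above 2.

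The ratio of the members was the lower one at matched depth as well. Among cells with 13 to 27 heavy-chain UMIs, the interquartile range of the members, the median ratio was 0.278 in 206 members with a light chain, 2 in 45 such other IgA cells and 2.35 in 567 such unswitched cells. Among cells with 17 to 33 receptor UMIs in all, it was 0.263 in 207 members, 1.33 in 17 other IgA cells and 2.80 in 441 unswitched cells with a light chain. The largest Cre+ IgA clone had a median ratio of 0.615 at both matchings, in 9 and 13 cells. Counted in reads in place of UMIs, the members' median was 0.281.

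Light-chain UMIs rose with heavy-chain UMIs within the members. Cells lacking a productive light chain were counted at 0. The median of light-chain UMIs was 3 in the 54 members with up to 9 heavy-chain UMIs and 4 in the 173 with 10 to 19. It was 5.5 in the 110 with 20 to 29 and 8 in the 80 with 30 or more. No productive light chain was found in 4, 17, 3 and 0 of these, respectively. The members without a productive light chain had 5 to 28 heavy-chain UMIs, with a median of 12. Across the 417 members the correlation of heavy- with light-chain UMIs was 0.568 (Pearson) and 0.561 (Spearman). This is a description across cells that share a library and a sequence. The variance of the UMIs per member was 5.23 times the mean for the heavy chain and 1.89 times for the light chain.

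The barcodes of the clone held almost nothing but its own chains. The 417 members had 840 contigs, and exactly 2 contigs were found in 387 of them (92.8%, 89.9 to 95.1). Among the other IgA cells 20 of 140 had 2 contigs (14.3%, 8.95 to 21.2) and 86 had 4 or more, against 1 member. A contig that was nonproductive or could not be assigned was found in 18 members (4.32%, 2.58 to 6.74), in 120 other IgA cells (85.7%, 78.8 to 91.1) and in 73.2% of unswitched cells. The interval of the members lay below that of the other IgA cells. Of the 21 such contigs of the members, 7 carried IGKV9-123, with 1 to 2 UMIs.

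Contigs with a lambda constant gene and no V gene were the most frequent of these in other IgA cells. They were found in 94 of 140 other IgA cells (67.1%, 58.7 to 74.8), in 48.3% of unswitched cells (46.3 to 50.4) and in 0 of the 416 clone cells, so that up to 0.721% is allowed. Nonproductive heavy contigs were found in 29 other IgA cells (20.7%, 14.3 to 28.4) and 14.9% of unswitched cells (13.4 to 16.4), and again in 0 of the 416. Contigs of no named chain were found in 3 members (0.719%, 0.149 to 2.09) and 27 other IgA cells (19.3%, 13.1 to 26.8). Contigs of T cell receptor loci were found in 1 member and 7 other IgA cells.

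**Figure D3:**
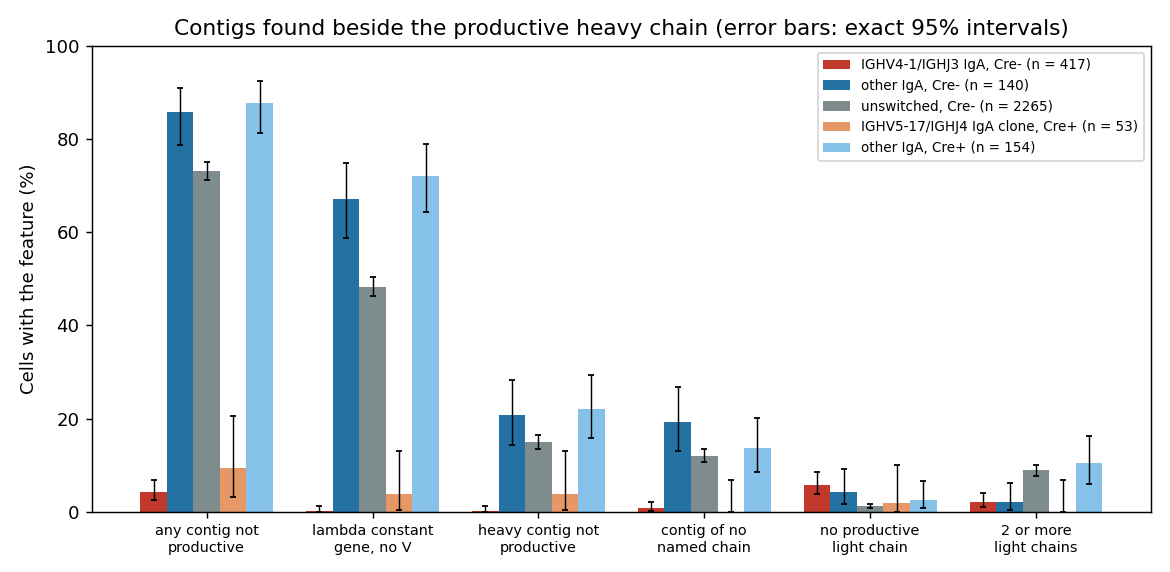
Share of cells (y axis, percent; error bars are exact 95% intervals) with each kind of contig or light-chain state (x axis) in 5 groups. Contigs that are not productive were found in 4.32% of the IGHV4-1/IGHJ3 IgA cells and 85.7% of the other IgA cells of the same library, and the IGHV5-17/IGHJ4 IgA clone of the Cre+ library is low as well, at 9.43%.

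The members had fewer receptor UMIs than other IgA cells, with medians of 23 and 73.5, so the comparison was repeated at like depth. Among cells with 17 to 33 receptor UMIs, 5.12% of 215 members (2.58 to 8.97), 76.5% of 17 other IgA cells (50.1 to 93.2) and 60.0% of 447 unswitched cells (55.2 to 64.5) had a contig that was not productive. With every barcode thinned to 10 receptor UMIs, the expected shares with a UMI of such a contig were 2.40% in 402 members, 69.8% in 139 other IgA cells and 54.0% in 2225 unswitched cells. This left out 15, 1 and 40 shallower cells. At the same depth no UMI of a productive light chain was expected in 13.1% of members, 5.01% of other IgA cells and 1.03% of unswitched cells. The unthinned shares were 5.76%, 4.29% and 1.15%. In the largest Cre+ IgA clone, 15.4% of 13 cells with 17 to 33 receptor UMIs (1.92 to 45.4) had a contig that was not productive. Thinned, its expected shares in 43 cells were 6.63% with such a contig and 1.96% without a UMI of a productive light chain.

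The assembled transcripts of the clone were uniform in length, and so were the heavy contigs of the largest Cre+ IgA clone. The heavy contig had a median of 592 nucleotides, and 384 of 416 clone cells (92.3%, 89.3 to 94.7) were within 5 nucleotides of it. Of the other IgA cells, which carry many V genes and CDR3 lengths, 30% were within 5 nucleotides of their own median of 594. The clone's kappa contig had a median of 497 nucleotides, with 91.2% of 388 within 5 (88.0 to 93.9). Light contigs of other IgA cells had a median of 540 and 8.21% within 5 (4.17 to 14.2). In the largest Cre+ IgA clone, 47 of 53 heavy contigs (88.7%, 77.0 to 95.7) were within 5 nucleotides of their median of 609. Of its 47 kappa contigs, 68.1% (52.9 to 80.9) were within 5 of their median of 520. Reads per heavy-chain UMI, a measure of how deeply each molecule was sequenced, ran from 55.6 through a median of 111 to 147 in members and from 5.21 through 93.4 to 136 in other IgA cells. The ranges overlapped, and members did not include the lowest values.

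**Figure D4:**
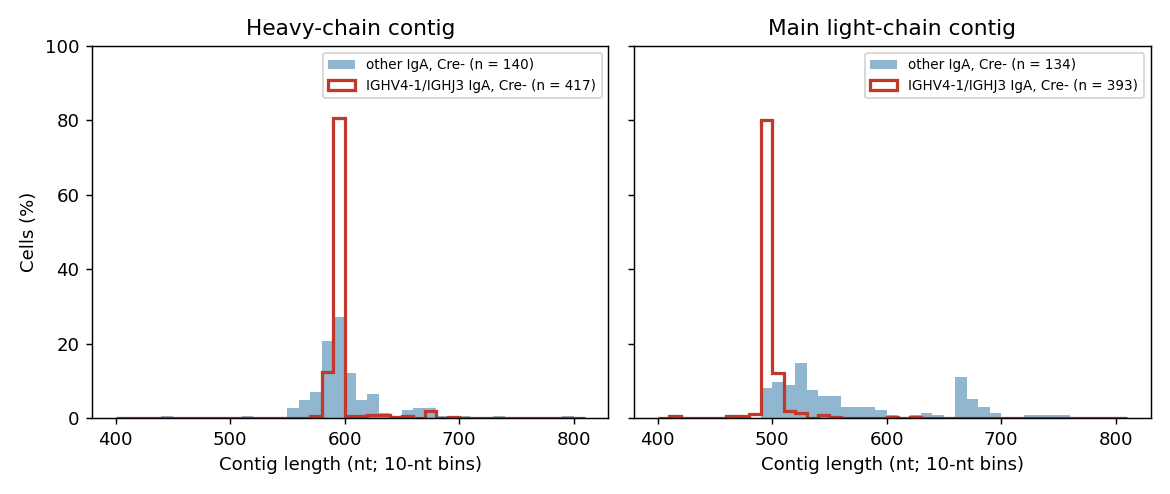
Share of cells (y axis, percent) by contig length in bins of 10 nucleotides (x axis) for the heavy chain (left) and the main light chain (right), in IGHV4-1/IGHJ3 IgA cells (red line) and other IgA cells (blue fill) of the control library. The members peak in a narrow band around 592 and 497 nucleotides, and the other IgA cells spread from 443 to 798 and from 491 to 757.

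The clone's chains were seldom found in other barcodes of the library. Its heavy CDR3 with IGHV4-1 occurred in 5 of 2828 other barcodes (0.177%, 0.0574 to 0.412), at 11, 2, 2, 1 and 1 UMIs. An IgM chain with 13, 4 and 9 UMIs stood beside the first 3, which had therefore been left out by the rule. Of the last 2 barcodes, 1 met every part of the rule but the constant gene, which was not called, and in the other the clone's contig was not productive. Free RNA in a droplet suspension can give UMIs in any barcode, and its part in the number of members was not tested. The clone's heavy chain had a median of 19 UMIs in the clone cells and of 2 in these 5 barcodes. Any barcode with this IgA chain as its only productive heavy chain is a member by the rule. Both the count of 5 and their UMIs are therefore shaped by the rule.

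The clone's kappa CDR3 was found in 17 other barcodes (0.601%, 0.351 to 0.961), with a median of 2 UMIs. In 12 of the 17 there was another heavy chain, of which 11 were IgM or IgD. Most cells outside the members were unswitched in any case, at 2265 of the library's 2947 cells with the 417 members counted in the 2947. The kappa CDR3 had 5 UMIs or fewer in 15 of the 17. In the remaining 2 it had 49 and 35 UMIs, above the highest value of 17 in the members. The former stood beside an IgM chain of IGHV1-64 and the latter beside 2 other heavy chains, of which IGHV1-80 IgM had the most UMIs. There were 0 other barcodes with both clone chains. Only the 5 other barcodes with the clone's heavy chain could have held both, so the rule shapes this count as well. In the Cre+ library the heavy CDR3 was found in 0 of 3748 barcodes, so that up to 0.0800% is allowed. The kappa CDR3 was found there in 2, with 38 and 36 UMIs, beside an IgD chain of IGHV1-52 and an IgA chain of IGHV1-64. In these 4 barcodes with more than 17 UMIs of the kappa CDR3, no heavy chain of the clone was found. For the 2 of the control library the rule shapes this too, since a barcode with the clone's IgA chain alone would be a member.

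**Figure D5:**
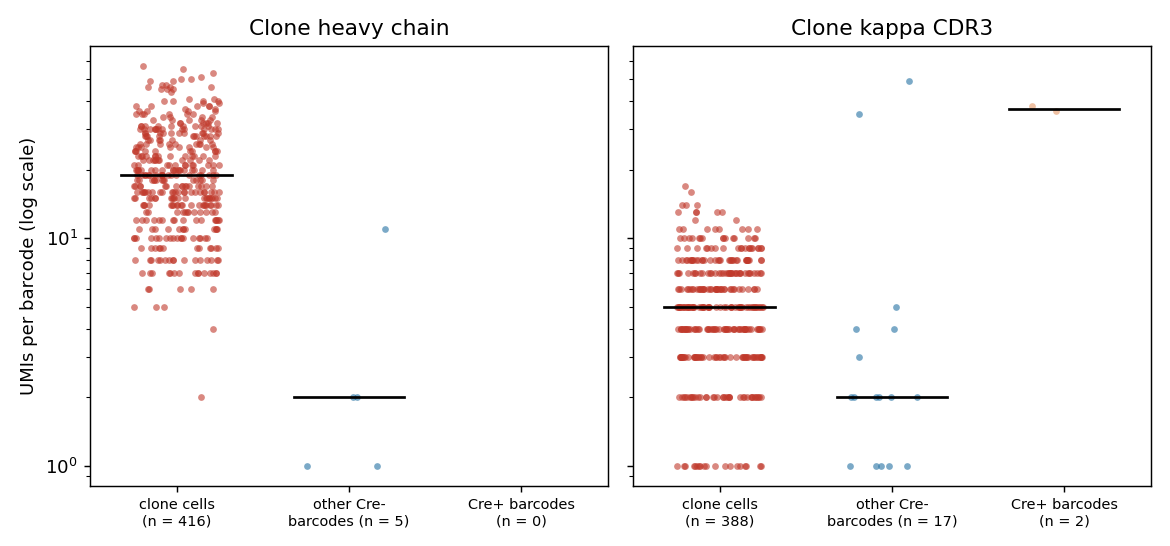
UMIs per barcode (y axis, log scale) of the clone's heavy chain (left) and kappa CDR3 (right) in clone cells, in other barcodes of the control library and in barcodes of the Cre+ library, 1 point per barcode with black lines at the medians. The heavy chain has a median of 19 UMIs in 416 clone cells and 2 in 5 other barcodes, a split that the rule itself shapes. The kappa CDR3 exceeds 17 UMIs in 4 barcodes, all outside the clone.

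The rest of the IGHV4-1 cells were described by CDR3 and isotype alone, and the rule itself fixes the isotype of the members. In the control library 19 further cells, the member outside the clone among them, used IGHV4-1 with 19 different CDR3s, and 18 of them were unswitched. The 1 IgA cell of the 19 is that member, whose isotype the rule fixed. Of all 2947 cells of that library 2265 were unswitched, and the 417 members were among the rest. Outside the members most cells were therefore unswitched, whatever their V gene. Just outside the rule were 5 cells with IGHV4-1 and IGHJ3 but without IGHA, of which 4 were IgM and 1 was the clone cell with no constant gene called. In the Cre+ library 26 cells used IGHV4-1, of which 6 had IGHJ3 and 1 was IgA, while 6.28% of all cells of that library were IgA. Of the members' barcodes, 0 were among the 10 that occurred in both libraries. Among pairs of members' barcodes, the nearest 5 of 86736 differed at 3 positions, and the median pair at 12. In unswitched cells the median pair also differed at 12, and the nearest 53 of 2563980 pairs at 2. Since free RNA can reach any barcode, these distances cannot tell whether the members are separate cells, which was not tested.

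The largest IgA clone of the Cre+ library, 53 IgA cells with IGHV5-17 and IGHJ4, shared some of these features. All 53 had the same heavy CDR3, and 47 had the same kappa chain, IGKV4-72. Exactly 2 contigs were found in 49 (92.5%, 81.8 to 97.9), and a contig that was not productive in 5 (9.43%, 3.13 to 20.7), against 87.7% of the 154 other IgA cells of that library (81.4 to 92.4). The intervals of both clones overlapped for these shares. They did not for cells with more light-chain than heavy-chain UMIs, at 14 of 53 (26.4%, 15.3 to 40.3) in the Cre+ clone and 0.719% of members. The Cre+ clone had a median of 8 heavy-chain UMIs, and 2 of its cells stood apart at 859 and 703, whereas the highest member had 57. Of its receptor UMIs 76.3% were heavy and 23.3% light, against 79.2% and 20.1% in the members. Without those 2 cells, chosen after their values were seen, its shares were 56.1% heavy and 42.8% light. Its heavy chain was found in 16 of 3684 barcodes outside its lineage (0.434%, 0.248 to 0.704), at a median of 2 UMIs. The lineage was built without regard to the constant gene, so more than the 53 IgA cells were left out of the library's 3748 barcodes. For the control clone only the IgA members were left out, so the outside shares of the clones are not of like sets. As these clones come from different libraries and carry different chains, library, genotype and clone cannot be told apart.

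In the clonotype table, where the authors grouped barcodes with identical chains, the members fell into 10 clonotypes. The largest held 381 members with the clone's heavy and kappa CDR3s, and the second held 23 with the heavy chain alone. Another 5 clonotypes held 1 member each. Of all deposited clonotypes, 13 with 420 barcodes in all contained the clone's heavy CDR3, and the largest clonotype without it had 6 barcodes.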

How the data were processed

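Receptor transcripts of 2 libraries were analysed, each from CD45+ Peyer's patch cells of 4 pooled mice. Per the labels, receptor libraries were made from 5' ends with a V(D)J kit of 10x Genomics. Cell Ranger and GRCm38 are named in the submitters' processing notes, with no version given. The counts deposited by the authors are raw reads and UMIs per assembled contig and barcodes per clonotype, per the file headers, with no normalisation. Every contig was flagged by the authors' caller as a cell's and as of high confidence. Barcodes with 2 or more productive heavy chains were left out, and no other doublet caller was run. Medians, interquartile ranges and exact intervals were computed with Python 3.11.15, pandas 2.3.3 and scipy 1.17.1. Thinning gave the expected value of a draw of 10 UMIs without replacement and was tested on simulated data. Gene positions come from the RefSeq table of GRCm38.p6. The light genes named were all those found in the members, the other lineages those with 3 or more IgA cells; the planned rule asked for 5, which none reached. The members, groups and lists were chosen with earlier results of these data known. Alternatives tried were changed rules for cells, at least 3 UMIs, reads in place of UMIs, thinning and matched depth.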

Additional observations from a re-analysis of the deposited data

How the results depend on the processing

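Of 63 alternative values for 18 results, 55 stayed within the interval of the reported value, or, for the number of cells, within 1.5 times of it; the other 8 are these. Thinned to 10 receptor UMIs, the share without a productive light chain was 13.1% in members, the share with a contig that was not productive was 2.40% in members and 69.8% in other IgA cells. With any light-chain contig counted, 3.36% of members lacked one. Among other IgA cells with heavy-chain UMIs in the members' interquartile range the median light-to-heavy ratio was 2, and among those with like receptor UMIs 76.5% had a contig that was not productive. Without cells at 100 or more heavy-chain UMIs, heavy chains held 20.8% of receptor UMIs in other IgA cells, against 23.1%, and 56.1% in the largest Cre+ clone, against 76.3%. The number of members was 416 to 422 under all rules tried. Allowing 2 or more heavy chains, or leaving out barcodes found in both libraries, kept the same 417 cells, so these values could not move. Asking for 3 or more UMIs, or for the clone's CDR3, left 416. No member reached 100 heavy-chain UMIs, so leaving out such cells could not change the members' share. The 55 values that stayed include all of these unchanged ones. Requiring the clone's CDR3, thinning of nonproductive contigs, matching on receptor UMIs leaving out cells at 100 or more heavy-chain UMIs and taking the kappa CDR3 with any V gene were chosen after seeing the data. No paired analysis was possible because there was 1 library per genotype and no result comes from a test; no library could be left out. Depth limits what can be read of light chains, at a median of 5 UMIs in the members that had one, and of contigs that were not productive, at a median of 1 UMI.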
